A study of Homo sapiens with 12 samples.

Results

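RCC4 cells in which HIF-2α was depleted by siRNA were compared with RCC4 cells that received control siRNA. All libraries labelled as HIF2A siRNA and all libraries labelled as control siRNA entered the comparison, 3 of each and 6 of the 12 libraries in the series. RCC4 is an established line of human clear cell renal cell carcinoma (ccRCC) epithelial cells that lacks functional VHL, so that both HIF-α proteins persist at ordinary oxygen in every group, controls included. Every dish received a total of 2 nM siRNA as pools and was harvested 48 h later. Control dishes received 2 nM non-targeting siRNA, and HIF2A siRNA dishes received 1 nM siRNA against EPAS1, the gene that encodes HIF-2α, with 1 nM control siRNA. The other 6 libraries came from dishes with 1 nM HIF1A siRNA and 1 nM control siRNA, or with 1 nM of each HIF siRNA and no control siRNA. Cells were grown in 21% oxygen. All values come from 1 cell line. The replicate numbers pair dishes across groups, as stated in the methods of the study. The libraries were polyA-selected, and fewer cells that express a gene cannot be told apart from less of its RNA per cell.

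VHL normally marks the HIF-α subunits for destruction when oxygen is present. Without VHL, HIF-1α and HIF-2α each pair with HIF-1β (ARNT) and bind DNA at a short core sequence, and the genes they activate overlap only in part. HIF-2α is known as a driver of growth in ccRCC, through genes for growth factors, cell cycle entry, angiogenesis and lipid storage, and it is the target of the drug belzutifan.

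The total count ranged from 16020278 to 20123214 across the 6 libraries, over 23106 gene symbols, of which 12830 passed the expression filter and were tested. Values are given as CPM, the counts of a gene scaled to the library total, and fold changes are on the log2 scale from the quasi-likelihood test of edgeR with Benjamini-Hochberg adjustment over all genes tested and the replicate as a block. A gene was called when the adjusted p was under 0.05. Renal markers were present, with PAX8 at a mean of 229 CPM with control siRNA and 243 CPM with HIF2A siRNA. The defining markers of leukocytes and endothelium, PTPRC, CD3E and PECAM1, had no counts in these 6 libraries. Of 17 listed markers of leukocytes, endothelium, fibroblasts and pericytes, 6 passed the expression filter and none was called, with a median log2 difference of 0.20. The highest was COL1A1, a fibrillar collagen, at 22.4, 26.5 and 35.4 CPM with control siRNA and 26.0, 51.3 and 71.1 CPM with HIF2A siRNA (0.77, unadjusted p = 0.00326, adjusted p = 0.479). Its part in the results was not tested.

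EPAS1 itself fell in every pair. Its level was 163, 138 and 171 CPM in control replicates 1 to 3 and 9.16, 11.9 and 9.33 CPM with HIF2A siRNA. The groups were far apart, and 5.92, 8.93 and 5.73% of the control level remained in the 3 pairs. The log2 fold change was −3.95 (SE 0.171, adjusted p = 1.43e-07). These levels rest on 171 to 187 counts per library with HIF2A siRNA and on 2653 to 2757 with control siRNA. HIF1A, which encodes the related HIF-1α, stood at 120, 58.2 and 112 CPM with control siRNA and at 111, 116 and 136 CPM with HIF2A siRNA. Control replicate 2 was the low one, the groups overlapped, and the log2 difference was 0.37 (SE 0.199, adjusted p = 0.931). ARNT, the shared partner, was at 36.5, 28.3 and 42.2 CPM with control siRNA and at 26.9, 21.9 and 35.1 CPM with HIF2A siRNA. It was lower in all 3 pairs, with a log2 difference of −0.35 that did not pass (SE 0.131, adjusted p = 0.816).

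Few transcripts passed this test, all of them lower, and after EPAS1 they were led by an insulin signalling adaptor, a coagulation initiator and an integrin. A total of 11 genes fell (0.0857% of those tested) and none rose (0%). In order of p they were EPAS1, IRS2, F3, ITGB8, C10orf10, SLC2A1, SYT13, TRIB3, MACC1, TGM2 and PDZD2. At an unadjusted p under 0.05, 370 genes were lower (2.88%) and 320 were higher (2.49%). Wider limits, used in the study's methods to define HIF target genes, ask for less than 0.833 of the control level and for an adjusted p under 0.1. The study applied them to DESeq2 results, and DESeq2 run here on the libraries of the fit put 58 genes within them. With edgeR, the test used here, they held 20 genes (0.156%). The further 9 were VEGFA, OTUB2, HMOX1, PLEKHG4B, C15orf48, AHR, CCND1, MAP1B and ARRDC3. The count of calls depended on single libraries. Without control replicates 1, 2 or 3, it was 33, 17 or 1. Without HIF2A siRNA replicates 1 or 3 it was 6 or 4, and without HIF1A siRNA replicate 2, a library of the fit but not of the contrast, it was 4. With no replicate block EPAS1 alone was called. The same contrast fitted on its own 6 libraries called 3 genes, and DESeq2 called 58, of which 47 were lower and 11 higher.

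**Figure D1:**
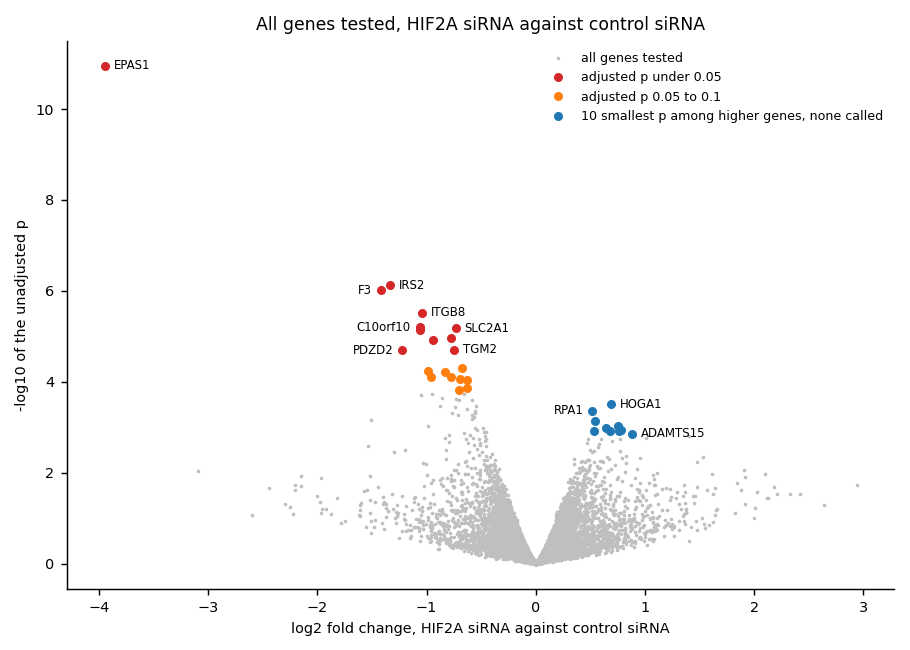
Each point is 1 of the 12830 genes tested, with the log2 fold change of HIF2A siRNA against control siRNA on the x axis and the −log10 of the unadjusted p on the y axis. Red points are the 11 genes called, orange points the further 9 within the target limits, and blue points the 10 genes with the smallest p on the higher side, none of which was called. EPAS1 stands alone at −3.95, and all other called genes lie between −1.42 and −0.73.

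The sequence at the start of these genes was examined because HIF dimers bind the core ACGTG or GCGTG. Windows of 300 bases, from 250 before to 50 after the start site, were taken from RefSeq on the GRCh38.p14 build, whereas the counts were made on hg19. Of the 20 genes, 14 had a window and 8 of these held a core on either strand (57.1%), against 63.2% of the 10219 tested genes with a window and 48.4% of all 27305 windows. The share among these genes was therefore not above that of tested genes. The core was found in the windows of EPAS1, ITGB8, SLC2A1, TRIB3, OTUB2, C15orf48, AHR and MAP1B, and not in those of IRS2, F3, C10orf10, MACC1, PLEKHG4B and ARRDC3. A match is only a match of letters, and windows without one say nothing about binding elsewhere. Below are 4 of the called genes, chosen to show 2, 1, 6 and no cores, each read 5′ to 3′ on the strand of the gene. Capitals mark the core, which reads CACGT or CACGC where it lies on the opposite strand. In TRIB3, adjacent cores run together into 1 stretch of capitals.
ITGB8 (chr7:20330650-20330949, plus strand): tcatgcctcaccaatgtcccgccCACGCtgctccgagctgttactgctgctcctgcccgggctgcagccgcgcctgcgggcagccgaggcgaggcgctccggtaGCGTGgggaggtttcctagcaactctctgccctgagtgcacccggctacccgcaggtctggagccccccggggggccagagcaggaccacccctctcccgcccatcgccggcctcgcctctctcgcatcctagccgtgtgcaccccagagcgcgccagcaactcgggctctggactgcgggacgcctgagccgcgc
SLC2A1 (chr1:42958819-42959118, minus strand): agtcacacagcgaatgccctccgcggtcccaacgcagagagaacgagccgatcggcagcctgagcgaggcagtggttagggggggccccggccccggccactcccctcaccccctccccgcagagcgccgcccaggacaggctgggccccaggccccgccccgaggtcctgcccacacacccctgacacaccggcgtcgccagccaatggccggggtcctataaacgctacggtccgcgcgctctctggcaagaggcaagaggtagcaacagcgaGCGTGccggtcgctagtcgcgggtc
TRIB3 (chr20:381045-381344, plus strand): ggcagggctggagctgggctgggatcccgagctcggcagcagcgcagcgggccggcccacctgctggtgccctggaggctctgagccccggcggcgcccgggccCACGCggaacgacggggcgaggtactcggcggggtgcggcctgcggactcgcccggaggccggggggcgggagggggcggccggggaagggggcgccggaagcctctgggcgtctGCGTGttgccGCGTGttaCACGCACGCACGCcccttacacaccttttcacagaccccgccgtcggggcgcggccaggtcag
IRS2 (chr13:109786534-109786833, minus strand): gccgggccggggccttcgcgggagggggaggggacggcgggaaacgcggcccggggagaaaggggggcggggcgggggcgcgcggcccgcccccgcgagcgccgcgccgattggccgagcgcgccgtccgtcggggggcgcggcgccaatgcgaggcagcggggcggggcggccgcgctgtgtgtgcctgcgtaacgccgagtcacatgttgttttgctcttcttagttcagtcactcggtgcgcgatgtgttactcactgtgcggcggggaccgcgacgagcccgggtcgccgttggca

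IRS2 and TRIB3 belong to insulin signalling. IRS2, an adaptor that links the insulin and IGF receptors to PI3 kinase, was at 308, 367 and 219 CPM with control siRNA and at 142, 164 and 62.8 CPM with HIF2A siRNA. The groups did not overlap, replicate 3 was the lowest in both, and IRS2 fell by 1.34 on the log2 scale (SE 0.148, adjusted p = 0.00415). TRIB3, a pseudokinase that binds AKT and is induced by ATF4 under stress, was at 219, 232 and 208 CPM with control siRNA. With HIF2A siRNA it was at 121, 139 and 122 CPM, so that 55.5 to 60.1% remained in each pair (log2 fold change −0.78, SE 0.11, adjusted p = 0.0167). In the list of 32 genes of insulin, IGF and PI3 kinase signalling, 29 were tested and these were the only 2 that fell, none rose, and the median was 0.05 against 0.0063 for all genes. PIK3R2, a regulatory subunit of PI3 kinase, was the member with an unadjusted p under 0.05 on the higher side (0.44, adjusted p = 0.69).

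F3, which encodes tissue factor, the initiator of coagulation, was at 246, 274 and 245 CPM with control siRNA and at 120, 74.0 and 92.4 CPM with HIF2A siRNA. The control libraries were close together, while the share that remained differed between pairs, from 27.2 to 48.8%. F3 fell by 1.42 on the log2 scale (SE 0.161, adjusted p = 0.00415). TGM2, the transglutaminase that cross-links matrix proteins, was at 125, 116 and 139 CPM with control siRNA and at 75.5, 73.4 and 75.2 CPM with HIF2A siRNA, without overlap (log2 fold change −0.75, SE 0.114, adjusted p = 0.0236). Among 18 tested genes of coagulation and fibrinolysis F3 alone was called. PLAT, which encodes tissue plasminogen activator, had a log2 difference of −0.58 (adjusted p = 0.79).

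ITGB8, the integrin subunit that with αv releases active TGF-β, was at 132, 96.8 and 91.6 CPM with control siRNA and at 58.4, 53.5 and 41.9 CPM with HIF2A siRNA. It fell by 1.04 (SE 0.132, adjusted p = 0.00971) and the groups did not overlap. It was the only one of 17 tested integrin subunits to pass, and the median of these 17 was 0.02. MACC1, a regulator of MET transcription, was at 66.9, 43.6 and 22.5 CPM with control siRNA and at 33.1, 21.8 and 12.8 CPM with HIF2A siRNA. Its groups overlapped, because replicate 3 was low in both, but 49.9 to 57.9% remained within each pair (log2 fold change −0.94, SE 0.135, adjusted p = 0.0167). MET itself differed by −0.12 (adjusted p = 0.962).

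SLC2A1, the glucose transporter GLUT1, had the narrowest spread of pairs among the 11 called genes. It was at 1540, 1580 and 1590 CPM with control siRNA and at 940, 935 and 935 CPM with HIF2A siRNA, and 58.7 to 61.2% remained. Its log2 fold change was −0.73 (SE 0.0998, adjusted p = 0.0131). It was the only member called among 26 tested genes of glucose uptake and glycolysis, whose median was 0.05. C10orf10 (DEPP1), a gene induced by FOXO factors, was at 74.0, 55.2 and 31.7 CPM with control siRNA and at 29.2, 30.7 and 15.6 CPM with HIF2A siRNA (log2 fold change −1.07, SE 0.144, adjusted p = 0.0131). The highest library with HIF2A siRNA lay just under the lowest control library.

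SYT13, a synaptotagmin of vesicle traffic, was at 463, 318 and 177 CPM with control siRNA and at 179, 196 and 81.8 CPM with HIF2A siRNA. PDZD2, a PDZ domain protein, was at 41.2, 30.6 and 10.1 CPM with control siRNA and at 14.5, 14.2 and 4.98 CPM with HIF2A siRNA. Both had a low replicate 3 in both groups, so that the groups overlapped, yet both were lower in each pair. Their log2 fold changes were −1.06 (SE 0.145, adjusted p = 0.0131) for SYT13 and −1.22 (SE 0.185, adjusted p = 0.0236) for PDZD2. Of the 20 genes within the target limits, 20 were lower in all 3 pairs, as were 1564 of all 12830 genes. Of the 20, 14 did not overlap between groups, where 2.88% of all genes lay lower without overlap and 2.39% higher. These 20 were selected by p and direction in the same libraries, so both counts follow in part from that selection.

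**Figure D2:**
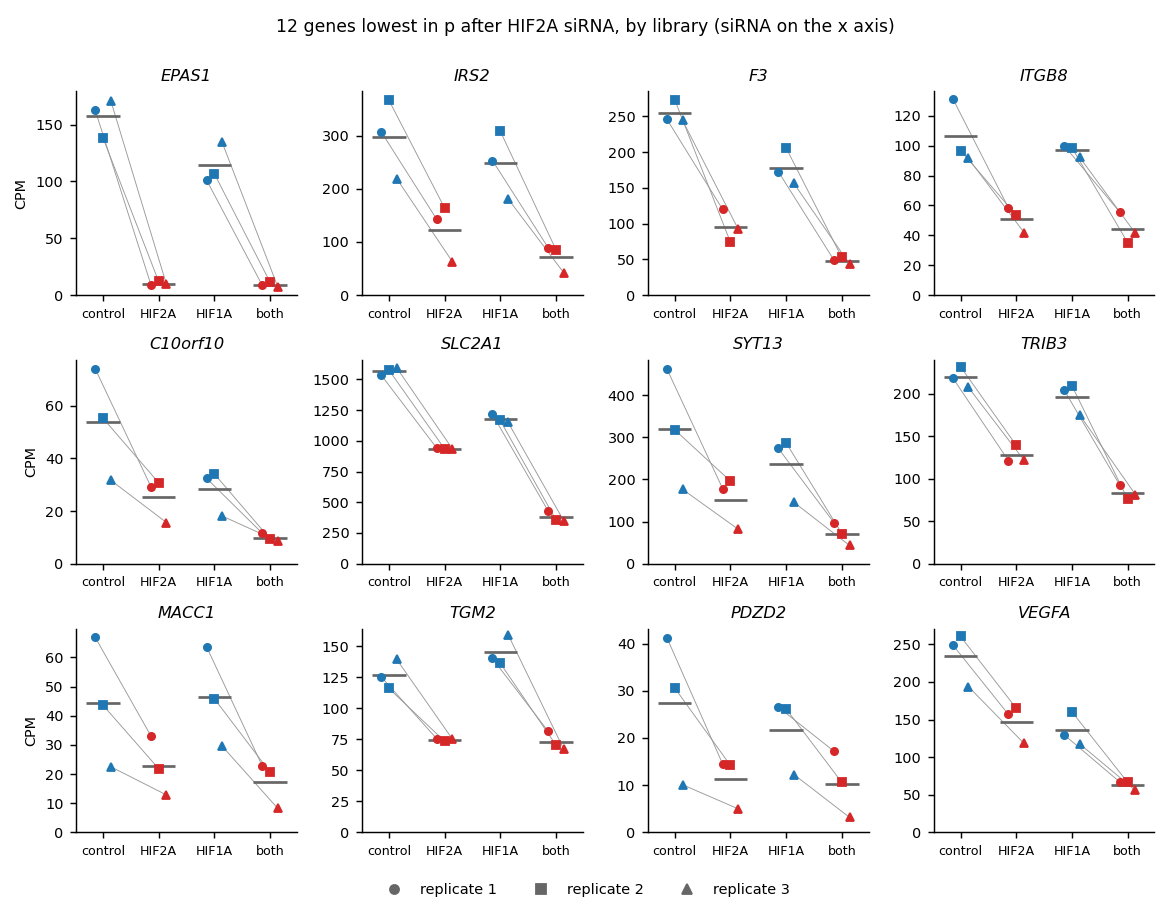
CPM on the y axis in each of the 12 libraries for the 12 genes with the smallest p, with the siRNA on the x axis, 1 symbol per replicate, thin lines joining the same replicate and grey bars at the mean of 3. EPAS1 is at 7.01 to 11.9 CPM in all 6 libraries with HIF2A siRNA, alone or with HIF1A siRNA, and in SYT13, MACC1 and PDZD2 replicate 3 is the lowest of its group throughout.

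The genes between the adjusted p of 0.05 and 0.1 included familiar HIF targets. VEGFA, the main angiogenic growth factor, was at 249, 260 and 194 CPM with control siRNA and at 157, 165 and 118 CPM with HIF2A siRNA, without overlap, and 61.1 to 63.4% remained (log2 difference −0.67, SE 0.112, adjusted p = 0.0538). CCND1, which encodes cyclin D1 for entry into the cell cycle, was at 606, 568 and 330 CPM with control siRNA and at 388, 412 and 188 CPM with HIF2A siRNA. Its groups overlapped because replicate 3 was low in both, and its log2 difference was −0.63 (SE 0.112, adjusted p = 0.0651). HMOX1, the haem-degrading enzyme, was at 117, 161 and 119 CPM with control siRNA and at 77.3, 80.9 and 63.3 CPM with HIF2A siRNA (log2 difference −0.83, adjusted p = 0.0555). AHR, the aryl hydrocarbon receptor, was at 62.3, 51.8 and 78.2 CPM with control siRNA and at 40.4, 30.0 and 48.3 CPM with HIF2A siRNA (log2 difference −0.69, adjusted p = 0.0643). HMOX1 and AHR did not overlap between groups. The remaining members were OTUB2, a deubiquitinase, at −0.98, PLEKHG4B at −0.96, C15orf48 at −0.78, ARRDC3, an α-arrestin, at −0.71 and MAP1B, a microtubule protein, at −0.63.

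Just past these limits, the 10 further genes with the smallest p on the lower side included the secreted peptides EDN1 and ADM and the enzymes CP and MGLL. EDN1, the vasoconstrictor endothelin, was at 77.6, 112 and 62.6 CPM with control siRNA and at 47.9, 37.1 and 32.0 CPM with HIF2A siRNA (log2 difference −1.05, adjusted p = 0.11). ADM, the vasodilator adrenomedullin, was at 108, 113 and 36.1 CPM with control siRNA and at 84.8, 42.4 and 20.3 CPM with HIF2A siRNA (log2 difference −0.86, adjusted p = 0.118). The EDN1 groups were separate and those of ADM were not. CP, the copper-binding ferroxidase ceruloplasmin, had a log2 difference of −0.66, MGLL, the monoglyceride lipase, −0.73, CDCP1, a transmembrane substrate of SRC, −0.71, LBH −0.95, TNFAIP6 −0.59, CLEC4E −0.88, EIF3J −0.54 and RASSF4 −0.74.

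On the higher side no gene passed with edgeR as fitted here, so the 10 genes with the smallest p are given as values. Other edgeR settings did call some of them. With no expression filter 8 genes rose, among them ADAMTS15, CDH16, ELF3, HOGA1 and SDPR, and with all 12 libraries in the fit HOGA1 rose. JAG1, a ligand of Notch, was at 160, 158 and 165 CPM with control siRNA and at 199.7, 268 and 234 CPM with HIF2A siRNA. It was higher in all 3 pairs without overlap, with a log2 difference of 0.54 (SE 0.122, adjusted p = 0.222). ELF3, an epithelial transcription factor, was at 18.3, 16.7 and 16.4 CPM and at 27.6, 23.8 and 39.3 CPM (log2 difference 0.78, adjusted p = 0.291). SDPR, a caveolar protein also known as CAVIN2, was at 57.5, 68.3 and 62.2 CPM and at 89.9, 77.7 and 140 CPM (log2 difference 0.68, adjusted p = 0.291). HOGA1, a mitochondrial enzyme of hydroxyproline breakdown, was at 46.1, 58.9 and 34.0 CPM and at 65.5, 93.0 and 61.7 CPM (log2 difference 0.69, adjusted p = 0.144), and RPA1, which binds single-stranded DNA, differed by 0.52 (adjusted p = 0.165). All 10, with CDH16, HLX, ALDH9A1, KCNJ16 and ADAMTS15, were higher in each pair, with log2 differences from 0.52 to 0.88.

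**Figure D3:**
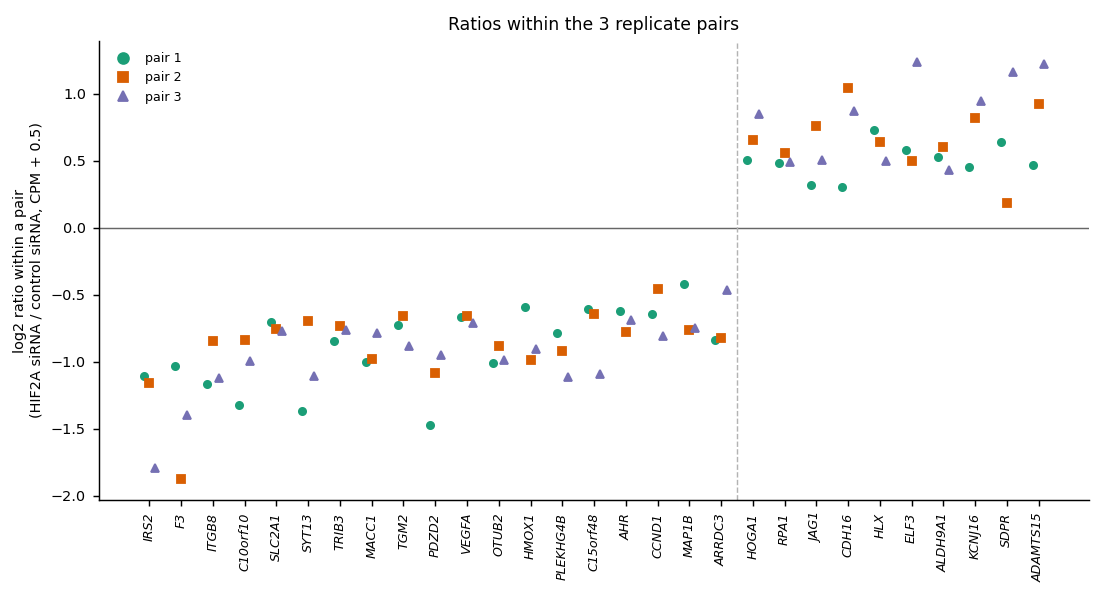
Log2 ratio of HIF2A siRNA to control siRNA within each replicate pair (y axis, after adding 0.5 CPM) for the 19 genes other than EPAS1 within the target limits (left of the dashed line) and for the 10 genes with the smallest p on the higher side. Each of the 19 lies below 0 in 3 pairs and each of the 10 above 0. SLC2A1, TRIB3 and VEGFA have close pairs, while F3 and SYT13 spread more widely.

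The pairs themselves differed in noise. The interquartile range of the log2 ratio over all 12830 genes was 0.516 in pair 1, 0.587 in pair 2 and 0.316 in pair 3, and its median lay between −0.01 and 0.0042. Genes more than 1 below 0 on this scale numbered 206, 330 and 121 and genes more than 1 above it 188, 301 and 137. Pair 3 was the tightest, and without replicate 3 the count of calls was 2, of which 1 was among the 11 and the other, PRRC2A, was higher. Without replicate 1 it was 20, of which 6 were among the 11 and 7 were higher, and without replicate 2 it was 27, of which 11 were among the 11 and 2 were higher.

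The libraries with HIF1A siRNA gave a second measurement of EPAS1 depletion in other dishes. In these, both siRNAs together were compared with HIF1A siRNA, and neither group of 3 libraries is part of the contrast above. The fits share libraries in the estimates of spread, the replicate blocks and the scaling, and the same siRNA pool was used, so that an effect of the pool beyond EPAS1 cannot be told apart from one through it. In this background 126 of 13000 genes fell (0.969%) and 56 rose (0.431%). EPAS1 went from 101, 107 and 134 CPM to 8.54, 11.3 and 7.01 CPM. Of the 11 genes called above, 11 fell here too, and of the 20 within the target limits 19 fell. The exception was MAP1B (log2 difference −0.61, adjusted p = 0.0621). Over the 19 genes other than EPAS1 the median was −1.21 with HIF1A depleted and −0.83 without, and 18 of the 19 had the lower value there, as did 6600 of all 12830 genes. Among the 370 genes that were lower at an unadjusted p under 0.05, 350 were below 0 here and 86 fell (23.2% of the 370, and 68.3% of the 126 that fell). Among the 320 that were higher, 38 were below 0 and 33 rose.

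SLC2A1 had different levels left in the backgrounds, although the test of that difference did not pass. With HIF1A siRNA it was at 1220, 1160 and 1150 CPM, and with both siRNAs at 429, 357 and 349 CPM, so that 30.4 to 35.3% remained against 58.7 to 61.2% without HIF1A siRNA. Its log2 fold changes were −1.64 (adjusted p = 3.33e-07) and −0.73, and the difference between them was −0.90 (SE 0.133, unadjusted p = 7.88e-06, adjusted p = 0.0649), a test chosen after the values were seen. No gene passed an adjusted p under 0.05 in that test with edgeR, and 318 of 13000 had an unadjusted p under 0.05. With no expression filter 4 genes passed, without HIF2A siRNA replicate 1 it was 3, and without HIF2A siRNA replicate 2 it was 1. IRS2 went from 253, 309 and 181 CPM to 89.1, 85.6 and 42.0 CPM (log2 fold change −1.82, adjusted p = 9.69e-06). F3 went from 173, 206 and 156 CPM to 48.8, 52.8 and 43.2 CPM (log2 fold change −1.89, adjusted p = 1.24e-05). Both were without overlap, as were VEGFA (−1.10, adjusted p = 3.33e-05), HMOX1 (−0.90, adjusted p = 0.00205) and AHR (−0.83, adjusted p = 0.00114). CCND1 fell by 0.99 (adjusted p = 7.94e-05), again with the lowest levels in replicate 3.

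Of the genes just past the limits, EDN1 (−0.99, adjusted p = 0.0184), ADM (−1.34, adjusted p = 0.00148), CP (−0.77, adjusted p = 0.00191), MGLL (−0.94, adjusted p = 0.00462) and CDCP1 (−1.09, adjusted p = 0.000308) fell when HIF1A was depleted as well. They were among the 8 of those 10 genes that did so. On the higher side 5 of the 10 rose. JAG1 went from 160, 178 and 186 CPM to 319, 353 and 300 CPM (log2 fold change 0.89, adjusted p = 0.000395). SDPR rose by 1.14 (adjusted p = 0.00148), ELF3 by 1.04 (adjusted p = 0.00418), HOGA1 by 0.60 (adjusted p = 0.0236) and RPA1 by 0.50 (adjusted p = 0.0271). With HIF1A depleted, 7 of the 10 lay higher without overlap, as did 489 of all 12830 genes. These 7 were JAG1, SDPR, ELF3, HOGA1, RPA1, ALDH9A1 and ADAMTS15, and they did not overlap without HIF1A siRNA either. The 10 were selected by p and direction against control siRNA, so the separation there follows in part from that selection.

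**Figure D4:**
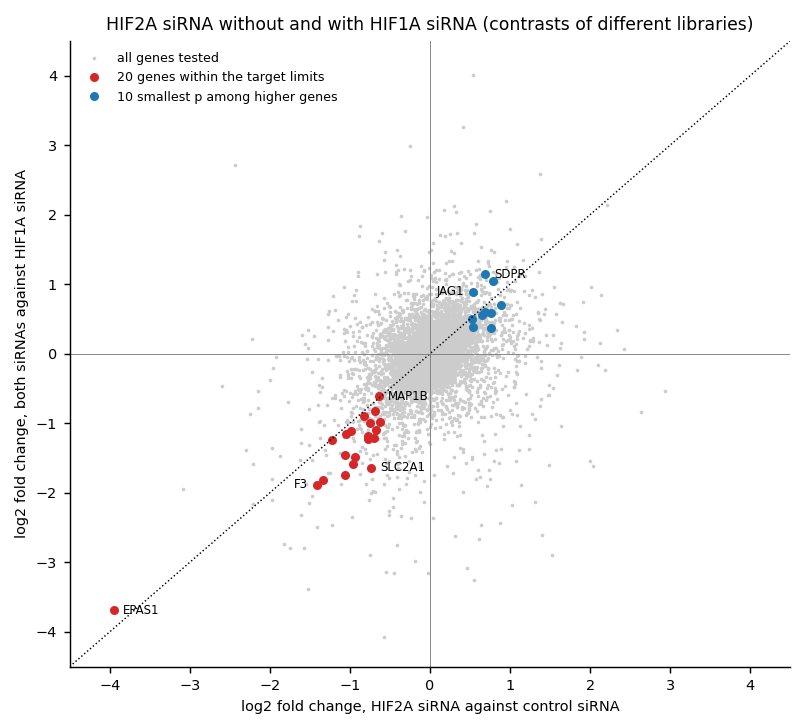
Log2 fold change of HIF2A siRNA against control siRNA (x axis) and of both siRNAs against HIF1A siRNA (y axis) for all genes tested in grey, the 20 genes within the target limits in red and the 10 genes with the smallest p on the higher side in blue. The dotted line marks equal values. All 20 red points lie below 0 on both axes, and 18 lie under the dotted line.

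To see how these levels stood beside depletion of HIF-1α, the HIF2A siRNA libraries were set against the HIF1A siRNA libraries. These values share the HIF2A siRNA libraries with the comparison above. In this test 35 genes were lower with HIF2A siRNA (0.273%) and 158 were higher (1.23%). IRS2 (−1.07, adjusted p = 0.00154), ITGB8 (−0.93, adjusted p = 0.00196), MACC1 (−1.07, adjusted p = 0.000792), TGM2 (−0.95, adjusted p = 0.000519), OTUB2 (−1.24, adjusted p = 0.00124), AHR (−0.76, adjusted p = 0.00514) and CCND1 (−0.66, adjusted p = 0.00682) were lower with HIF2A siRNA than with HIF1A siRNA. For 4 others the value was near 0 and did not pass. VEGFA was at 130, 160 and 118 CPM with HIF1A siRNA and differed by 0.11 (SE 0.1118, adjusted p = 0.787). C10orf10 was at 32.4, 34.1 and 18.1 CPM and differed by −0.16 (SE 0.1443, adjusted p = 0.763). C15orf48 was at 81.0, 95.1 and 40.8 CPM and differed by −0.03 (SE 0.1359, adjusted p = 0.968). MAP1B was at 153, 215 and 232 CPM and differed by −0.16 (SE 0.1177, adjusted p = 0.706). SLC2A1 differed by −0.32 (adjusted p = 0.205).

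Genes described in other work as dependent on HIF-2 in VHL-deficient renal carcinoma lay mostly on the lower side. Among those tested, 27 of 32 were below 0, against 6222 of all 12830 genes. Of 34 listed, 32 were tested, EPO and CXCR4 being too low, and 2 fell (C10orf10 and SLC2A1). At an unadjusted p under 0.05, 12 were lower (37.5%, against 2.88% of all genes) and none was higher. This list was chosen with earlier results of these data known, so its share is no independent evidence. The median log2 difference was −0.21 against 0.0063 for all genes. With HIF1A depleted, 13 fell and none rose, where 0.969% of all genes fell and 0.431% rose. The median of the list was then −0.49. Beyond the genes above, TGFA, a ligand of EGFR, was at 100.1, 84.4 and 100.4 CPM with control siRNA and at 71.5, 57.6 and 61.4 CPM with HIF2A siRNA (−0.57, adjusted p = 0.205). PLIN2, the coat protein of lipid droplets, was at 257, 239 and 212 CPM and at 161, 202 and 150 CPM (−0.47, adjusted p = 0.355). Neither overlapped between groups. SLC7A5, the LAT1 amino acid transporter, differed by −0.57 (adjusted p = 0.192), and ITPR1, a calcium channel of the endoplasmic reticulum, by −0.80 (adjusted p = 0.374). All 4 fell when HIF1A was depleted, TGFA by 0.56 (adjusted p = 0.0337), PLIN2 by 0.86 (adjusted p = 0.000547), SLC7A5 by 0.58 (adjusted p = 0.0186) and ITPR1 by 1.43 (adjusted p = 0.00145). Other listed genes were near 0 in both backgrounds, among them AXL (−0.01 and 0.10), MYC (0.05 and 0.15), PFKFB3 (−0.0022 and −0.06) and HILPDA (0.04 and −0.05).

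Genes known mainly as HIF-1 targets lay on either side of 0. Of 38 tested, 15 were below 0, none was called in either direction, and the median was 0.06. At an unadjusted p under 0.05, 1 was lower (2.63%, against 2.88% of all genes) and 2 were higher (5.26%, against 2.49%). CA9, the cell surface carbonic anhydrase, was at 252, 283 and 144 CPM with control siRNA and at 312, 405 and 197 CPM with HIF2A siRNA (log2 difference 0.44, SE 0.151, adjusted p = 0.745). GYS1, the muscle-type glycogen synthase, differed by 0.33 (adjusted p = 0.79). NDRG1 was the lower one, at 330, 260 and 301 CPM with control siRNA and at 146, 289 and 200.2 CPM with HIF2A siRNA (−0.51, adjusted p = 0.87). With HIF1A depleted, 4 of the 38 fell and none rose, where 0.969% of all genes fell and 0.431% rose. The median of the 38 was then −0.13. NDRG1 was 1 of the 4, and it went from 160, 157 and 182 CPM to 52.9, 46.2 and 44.8 CPM (log2 fold change −1.79, adjusted p = 0.000163). EGLN3, the HIF prolyl hydroxylase PHD3, was in the HIF-2 list. It differed by −0.19 without HIF1A siRNA (adjusted p = 0.942) and fell by 1.37 with it (adjusted p = 5.19e-05).

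Among 22 tested angiogenic and vasoactive factors, 5 were lower (22.7%, against 2.88% of all genes) and none higher (2.49% of all genes) at an unadjusted p under 0.05, namely VEGFA, EDN1, ADM, FGF1 and IL8, and none was called. FGF1 was lower in all 3 pairs (−0.45, adjusted p = 0.415), and it fell by 0.69 with HIF1A depleted (adjusted p = 0.00462). IL8 differed by −0.37 (adjusted p = 0.92). Of 28 tested genes of the NF-κB response, 8 were lower (28.6%, against 2.88% of all genes) and none higher (2.49% of all genes) at an unadjusted p under 0.05, none was called, and the median was −0.14. They included ICAM1, an adhesion molecule, at 237, 208 and 278 CPM with control siRNA and 212, 143 and 185 CPM with HIF2A siRNA (−0.42, adjusted p = 0.596). TNFAIP3, a feedback inhibitor of NF-κB, differed by −0.45 (adjusted p = 0.615) and fell by 0.60 with HIF1A depleted (adjusted p = 0.0333). The NF-κB subunits themselves were near 0, RELA at −0.10 and NFKB1 at −0.13. The angiogenic and NF-κB lists both hold IL8. Both were chosen with earlier results of these data known, so their shares are no independent evidence.

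In the AHR pathway 4 of 9 tested members were lower (44.4%, against 2.88% of all genes) and 1 was higher (11.1%, against 2.49%) at an unadjusted p under 0.05, with none called. The 4 include AHR, itself within the target limits, and ARNT, both given above. The list was chosen with earlier results of these data known, so its share is no independent evidence for the pathway. TIPARP, a target and repressor of AHR, was at 62.1, 34.2 and 52.9 CPM with control siRNA and at 33.3, 32.3 and 36.0 CPM with HIF2A siRNA (−0.51, adjusted p = 0.706). AHRR, another AHR-induced repressor, went the other way, from 1.29, 1.56 and 0.868 CPM to 2.30, 3.63 and 1.96 CPM (log2 difference 1.08, SE 0.399, adjusted p = 0.801). Its levels were low, but its groups did not overlap, and it rose when HIF1A was depleted, from 1.32, 2.66 and 1.22 CPM to 6.01, 4.81 and 3.90 CPM (log2 fold change 1.58, adjusted p = 0.0337). CYP1B1, a cytochrome P450 induced by AHR, differed by −0.33 (adjusted p = 0.888).

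Among 25 tested semaphorins and their receptors none was called. SEMA4B was at 81.9, 82.8 and 121 CPM with control siRNA and at 53.8, 61.4 and 90.1 CPM with HIF2A siRNA (−0.48, adjusted p = 0.291), and it fell by 1.09 with HIF1A depleted (adjusted p = 3.33e-05). SEMA5B was at 10.2, 9.33 and 3.84 CPM with control siRNA, and at 0.643 and 0.901 CPM in HIF2A siRNA replicates 1 and 3 but 8.91 CPM in replicate 2, so that it did not pass (−1.57, SE 0.619, adjusted p = 0.87). With HIF1A depleted it went from 6.46, 6.54 and 6.23 CPM to 1.52, 1.58 and 0.243 CPM (−2.80, adjusted p = 0.0503). The low level was thus found in 5 of the 6 libraries that received HIF2A siRNA.

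The lists of proliferation and respiration genes had medians near 0, and none of their members was called. Of 34 tested DNA replication genes none had an unadjusted p under 0.05 (median −0.0053). Of 30 mitosis genes 3 were lower at that level (10%, against 2.88% of all genes), CDC25C, ANLN and KIF11, and none was higher. In this list 23 genes were below 0, the median was −0.08 and none was called. Of 77 respiratory complex subunits 1 was higher (1.3%, against 2.49% of all genes), UQCRH by 0.27 (adjusted p = 0.92), and the median was 0.06. Of 18 interferon-stimulated genes none had an unadjusted p under 0.05 (median −0.14). Of 24 genes of the MYC network and ribosome assembly 2 were higher at that level (8.33%, against 2.49% of all genes). These were FBL by 0.32 and MXD4 by 0.61 (adjusted p = 0.873 and 0.845).

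**Figure D5:**
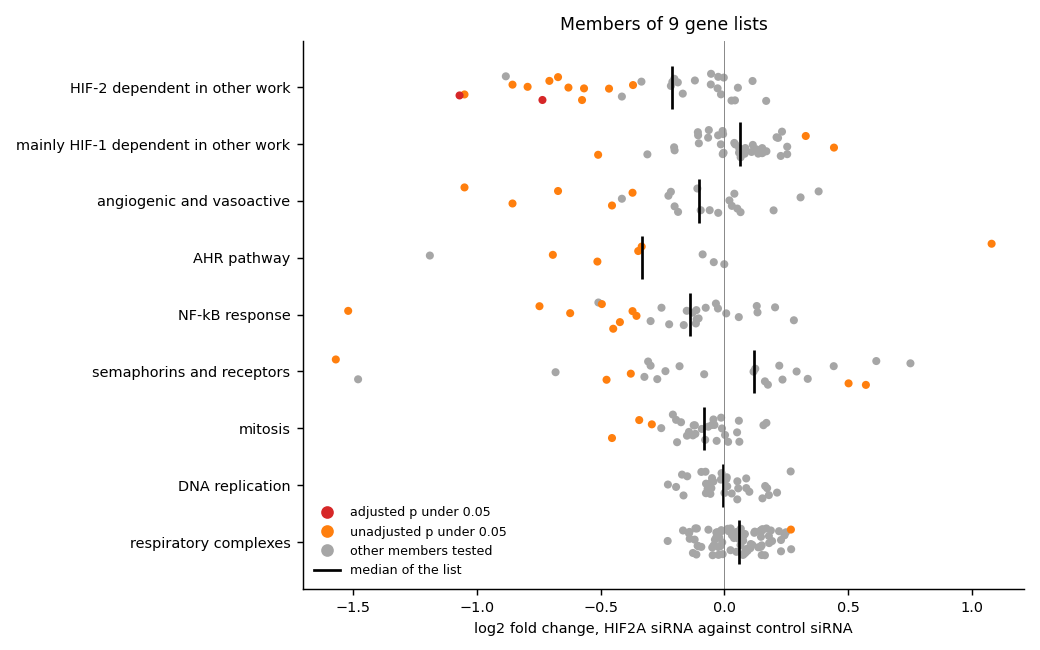
Log2 fold change of HIF2A siRNA against control siRNA (x axis) for each tested member of 9 gene lists (rows), with the list's median as a black bar, called members in red and those with an unadjusted p under 0.05 in orange. The list of HIF-2 dependent genes has its median at −0.21, and that of mainly HIF-1 dependent genes at 0.06.

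Lists taken from the study's tumor data were also counted. Of the genes higher in epithelial cells of every ccRCC compared than in normal proximal tubular cells, 142 were tested and 2 fell (C10orf10 and SLC2A1). At an unadjusted p under 0.05, 10 were lower (7.04%, against 2.88% of all genes) and 4 were higher (2.82%, against 2.49%), and the median was −0.03. The 10 included VEGFA, CCND1, ADM, SEMA5B, TIMP1 and MYADM, the last 2 with log2 differences of −0.44 and −0.34 (adjusted p = 0.706 and 0.69). Of the genes lower in ccRCC, 119 were tested, none was called, 3 were lower (2.52%, near the 2.88% of all genes) and 6 were higher (5.04%, against 2.49%), and the median was 0.08. The 19 genes of the study's HIF-2 specific signature were chosen on these libraries and are no independent evidence of direction. All 19 were below 0, 7 fell and 13 were within the target limits. In the libraries with HIF1A depleted, 16 of the 19 fell, with a median of −1.11, where 0.969% of all genes fell. The study left out targets shared with HIF1A siRNA, so the HIF1A siRNA libraries also entered the choice of these genes. This count is therefore no independent evidence either. ASB2, a member outside the target limits, was at 10.4, 10.4 and 13.4 CPM with control siRNA and at 7.87, 2.61 and 2.91 CPM with HIF2A siRNA (−1.51, SE 0.337, adjusted p = 0.21).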

How the data were processed

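Per the labels and the study's methods, polyA+ libraries were made with a directional kit from RNA of RCC4 cells, and the authors trimmed the reads (Trim Galore 0.3.3), aligned them to hg19 (HISAT2 2.05), kept uniquely mapped fragments (Picard 2.0.1) and counted fragments per gene (HTSeq 0.5.4p3, intersection-strict). Tool versions are from the submitters' processing notes. The authors deposited raw counts per gene symbol, 1 library per file, with no normalization. Whether counting used strand is not given in the sources used here, so genes that overlap on opposite strands, and near-identical copies, are uncertain.

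From the deposited counts, edgeR 4.0.16 (R 4.3.3) was run with TMM normalization, its filterByExpr defaults (a count of 10, scaled by library size, and a total of 15), the replicate as a block and the quasi-likelihood test. The 9 libraries with control, HIF1A or HIF2A siRNA were fitted together (12830 genes). All 12 were fitted (13000 genes) for both siRNAs against HIF1A siRNA and for the difference between the effects. CPM used each total scaled by its TMM factor (0.980 to 1.02). The 0.5 CPM added in ratios within pairs understates changes of low genes. Replicates differed by 38.4 to 106 times the sampling noise (chi-square per degree of freedom), so none was merged.

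The study's methods pair libraries by biological replicate. Deviations from group means correlated at 0.0991, 0.231 and 0.724 between control and HIF2A siRNA libraries of the same number, and at 0.527 between control replicate 2 and HIF2A siRNA replicate 1. Named genes were EPAS1, HIF1A and ARNT, those with an adjusted p under 0.1, the next 10 in p on each side, up to 4 members per list with an unadjusted p under 0.05 (otherwise the 2 with the highest CPM) and the study's HIF-2 signature. MET, AXL, MYC, EGLN3, ITPR1, IL8, CYP1B1, RELA, NFKB1, PFKFB3, HILPDA, EPO, CXCR4, TIMP1, MYADM, PRRC2A and the cell type markers were added after their values were seen. Members and lists were chosen with earlier results of these data known, so the shares of the lists are no independent evidence. Alternatives were DESeq2 (1.42.0), its size factors, other filters, other sets of libraries, no block and leaving out libraries. The code was tested on simulated counts.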

Additional observations from a re-analysis of the deposited data

Results flagged for a closer look

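CA9 moved in opposite directions in the 2 backgrounds, in every pair. It was higher with HIF2A siRNA than with control siRNA in 3 of 3 pairs (252, 283 and 144 against 312, 405 and 197 CPM) and lower with both siRNAs than with HIF1A siRNA in 3 of 3 (26.2, 20.7 and 9.15 against 16.3, 16.0 and 6.77 CPM). The difference between the log2 effects was −0.944 (SE 0.207, unadjusted p = 0.000401) and did not pass adjustment over all genes (edgeR, adjusted p = 0.54). CA9 was the only one of the 90 named genes with this pattern, which was not counted over all genes. Its groups overlapped in both backgrounds. Neither effect alone was called (adjusted p = 0.745 and 0.146).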

How the results depend on the processing

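Leaving out the replicate block reduced the 11 genes called to 1 (EPAS1), the 20 within the target limits to 1, the 182 called for both siRNAs against HIF1A siRNA to 8, and the 193 called for HIF2A against HIF1A siRNA to 52. DESeq2 in place of edgeR called 58, 58, 403 and 329, respectively. With no expression filter the counts were 41, 44 and, for HIF2A against HIF1A siRNA, 291. The fit of the 6 compared libraries alone called 3, 4 and, for both siRNAs against HIF1A siRNA, 656, and the fit of all 12 libraries called 26 and 37. Leaving out a library or a replicate number gave 1 to 33 called genes, 3 to 60 within the target limits, 26 to 209 for both siRNAs against HIF1A siRNA and 90 to 351 for HIF2A against HIF1A siRNA. The cause was not tested. Within the target limits, the counts without control replicates 1, 2 and 3 were 60, 32 and 8, without HIF2A siRNA replicate 3 it was 3, and without HIF1A siRNA replicates 1, 2 and 3 they were 13, 13 and 11. For both siRNAs against HIF1A siRNA the counts were 85, 64 and 67 without HIF1A siRNA replicates 1, 2 and 3, and 72, 108 and 61 without those replicates of both siRNAs. EPAS1 was called in all 19 alternatives, IRS2 and F3 in 16, ITGB8 in 14, SLC2A1 and SYT13 in 12, C10orf10, TRIB3, MACC1 and PDZD2 in 11 and TGM2 in 9. None of the 90 named genes with an unadjusted p under 0.05 changed sign in any alternative. Genes on the higher side were called by edgeR with no filter (8), with all 12 libraries (1) and in fits without a library or replicate (0 to 7), and by DESeq2 (11), among them JAG1, HOGA1, ELF3, SDPR and RPA1. A gene that was not called is not shown to be unchanged at this depth and number of libraries.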
